A study of Rattus norvegicus with 6 samples.

Results

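Receptors for acetylcholine and the enzyme that breaks it down were followed in the whole hippocampus of 2 rat lines. One is the Syracuse High Avoidance line, SHA, and the other the Syracuse Low Avoidance line, SLA. The genes are the muscarinic receptors Chrm1, Chrm2, Chrm3 and Chrm4, the nicotinic subunits Chrna4, Chrna5, Chrna7 and Chrnb2, and acetylcholinesterase, Ache. Every probe set of the array that the platform annotation assigns to 1 of these 9 genes alone was taken, which gave 17 of the 8799 probe sets for 9 of the 4736 genes named singly on the array. The lines are named for how animals perform in two-way active avoidance, a task in which a signalled shock is avoided by crossing a box. In both lines tissue was collected 2 weeks after that testing, and the labels state no drug, genotype, sex or age. Each line was represented by 3 pools of hippocampus, each of 3 rats and each on 1 one-colour oligonucleotide array. The labels do not say in words that the pools hold different rats, so the spread between pools may in part be technical. Untested rats were not analysed here, so traits of the lines and effects of the testing cannot be told apart.

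Acetylcholine reaches the hippocampus mainly along fibres from the medial septum and diagonal band, so the cell bodies that make the transmitter lie outside the tissue while most of its receptors are made inside it. Muscarinic receptors are coupled to G proteins: M1 and M3 act through Gq and phospholipase C, and M2 and M4 through Gi/o, which inhibits adenylyl cyclase. M1 is the main muscarinic receptor of hippocampal pyramidal cells, and M2 is known for its place on cholinergic and interneuron terminals. Nicotinic receptors are cation channels of 5 subunits. In brain the common forms are homomers of alpha7 and heteromers of alpha4 with beta2, which alpha5 can join as an accessory subunit. Acetylcholinesterase ends the signal by hydrolysing the transmitter in the synaptic cleft.

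The probe sequences were not used here, so promoter windows of 3 of the genes are printed for orientation. Ache, Chrna7 and Chrm1 serve as examples, picked with their values known. All probe sets of each lay on the same side in the comparison of the lines described below, as did those of Chrm2 and Chrm3. The windows are from RefSeq on build GRCr8, from 250 bases before to 50 bases after the start site used there, in the direction of the gene. Capitals mark the GC box GGGCGG, the letters bound by Sp1-type factors, and the E-box CACGTG, searched on both strands with overlapping matches allowed. The windows are, in order, chr12:25050361-25050660 on the minus strand, chr1:126249080-126249379 on the minus strand and chr1:214996109-214996408 on the plus strand.
Ache: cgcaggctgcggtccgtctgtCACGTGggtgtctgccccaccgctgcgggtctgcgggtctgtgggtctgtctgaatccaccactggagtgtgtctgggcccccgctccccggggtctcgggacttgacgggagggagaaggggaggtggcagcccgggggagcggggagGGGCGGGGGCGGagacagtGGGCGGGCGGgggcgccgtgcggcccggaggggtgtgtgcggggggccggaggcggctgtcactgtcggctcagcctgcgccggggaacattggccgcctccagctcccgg
Chrna7: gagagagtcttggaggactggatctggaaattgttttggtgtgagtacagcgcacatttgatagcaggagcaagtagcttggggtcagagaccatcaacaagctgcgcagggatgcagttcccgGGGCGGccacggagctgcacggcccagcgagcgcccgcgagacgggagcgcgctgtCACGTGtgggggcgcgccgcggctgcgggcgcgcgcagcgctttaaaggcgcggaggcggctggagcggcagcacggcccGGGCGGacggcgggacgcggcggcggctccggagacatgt
Chrm1: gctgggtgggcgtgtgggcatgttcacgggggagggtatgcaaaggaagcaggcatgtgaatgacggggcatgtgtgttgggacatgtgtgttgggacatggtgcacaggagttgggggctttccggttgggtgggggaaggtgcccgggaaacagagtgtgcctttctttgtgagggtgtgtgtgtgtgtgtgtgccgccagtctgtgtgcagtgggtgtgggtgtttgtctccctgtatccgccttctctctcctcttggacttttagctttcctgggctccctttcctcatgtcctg
The Ache window held 4 GC boxes and 1 E-box, the Chrna7 window 2 GC boxes and 1 E-box, and the Chrm1 window neither. Among all 33469 promoter windows of the table, 33.1% held a GC box and 6.42% an E-box. A GC box was found in the windows of 8 of the 9 genes, Chrm1 being the exception, with 5 in Chrm4, 4 in Chrna5, 3 in Chrna4, 2 in Chrm3 and 1 each in Chrm2 and Chrnb2. The windows were 57.7% to 75.0% G or C, against a median of 51.7% over the table. The TATA box letters TATAAA, on either strand, were in none of the 9 windows and in 14.2% of all windows, and the letters CCAAT were in those of Chrm4 and Ache and in 37.5% of all. These matches describe the letters of the windows and say nothing about binding.

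Values are the authors' deposited linear intensities, already scaled so that the 2%-trimmed mean was 250.3 to 250.4 on every array. For the tests, values under 8.9, the 10th percentile, were raised to that floor and log2 was taken, and the dimmest 25% of probe sets by mean was left out. Of the 17 probe sets 15 passed and 2 did not, so the 15 are those bright enough to be compared and not the whole group. A difference is the SHA minus the SLA mean on the log2 scale, ± its standard error from limma over 6555 probe sets, with n = 3 pools per line, and with the 95% interval where given. Of the neuronal markers listed for a tissue check, 8 of 10 were measured, and their summed intensity was 13661 to 15641 in SHA pools and 11859 to 14535 in SLA pools. Microglial and immune markers, 7 of 9 measured, summed to 508 to 707 in SHA and 810.0 to 1285 in SLA, without overlap. Skeletal muscle markers, 7 of 7 measured and 4 of them muscle receptor subunits, summed to 1411 to 1573 in SHA and 1038 to 1386 in SLA, also without overlap. Of these subunits Chrna1, Chrnb1 and Chrnd were higher in SHA, at 0.74, 0.39 and 0.58, and Chrng lower, at -0.43. How often such sums separate was not determined. The part of the microglial or the muscle markers in the results below was not tested. Markers of striatum, thalamus, hypothalamus and brain stem, 9 of 10 measured, summed to 445 to 1148 and 626 to 1215. In tissue extracts, fewer cells of a type and less RNA per cell cannot be told apart.

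None of the 15 probe sets had an adjusted p under 0.05 by limma, and none had an unadjusted p under 0.05. Over all 6555 probe sets, 0% passed at the adjusted and 1.5% at the unadjusted threshold, so a count of 0 among 15 is near the background. The pools of the lines overlapped for all 15, where 5.66% of all probe sets had wholly separate pools, 2.01% higher and 3.65% lower in SHA. The adjusted p was 1.00 for each of the 15 probe sets by limma.

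**Figure D1:**
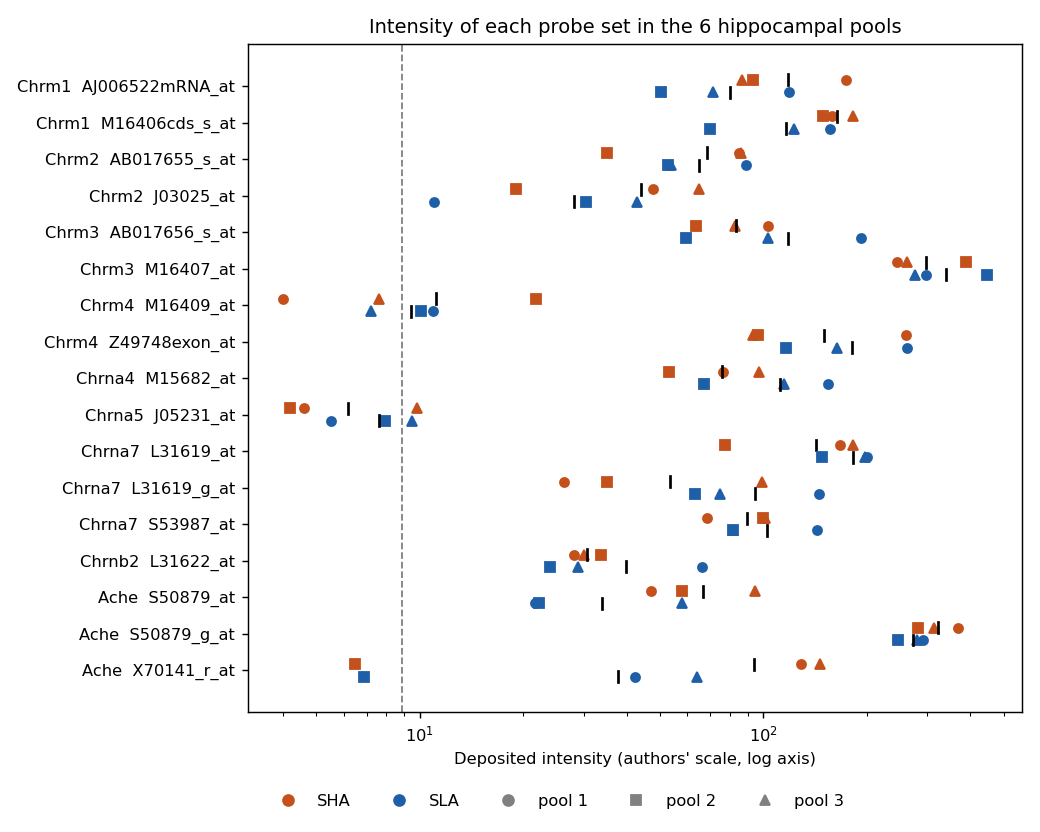
Deposited intensity (log axis) of the 17 probe sets in 3 SHA and 3 SLA pools, with pool numbers as symbols, line means as black ticks and the floor of 8.9 as a dashed line. The pools of the lines overlap for each probe set, and Chrna5 and 1 Chrm4 probe set lie around the floor.

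Chrm1 encodes M1, and both of its probe sets read higher on average in SHA. AJ006522mRNA_at read 173.6, 93.0 and 86.8 in SHA pools 1, 2 and 3, and 118.6, 50.2 and 71.1 in the SLA pools of those numbers. SLA pool 1 lay above 2 of the SHA pools, but within each pool number the SHA value was the higher. The difference was 0.58 ± 0.49 (-0.53 to 1.68, unadjusted p = 0.27 by limma), with 0.55, 0.89 and 0.29 within numbers 1, 2 and 3. Leaving out SHA pool 1 gave 0.26, leaving out SLA pool 2 gave 0.29 and leaving out SLA pool 1 gave 0.91. M16406cds_s_at read 158.1, 148.6 and 182.8 in SHA and 156.3, 70.1 and 122.7 in SLA. The SHA pools were close together at 163 ± 17.7 (SD), while the SLA pools spread over 116 ± 43.4, with pool 2 lowest. The difference was 0.56 ± 0.39 (-0.33 to 1.45, unadjusted p = 0.19 by limma), with 0.017, 1.08 and 0.58 within the numbers, and it was 0.23 without SLA pool 2. The probe sets of Chrm1 thus gave similar differences, and for both the pools of the lines overlapped and the interval included 0.

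Chrm3 encodes M3, the other Gq-coupled receptor of the group, and its probe sets read slightly lower on average in SHA. M16407_at read 244.4, 387.2 and 262.3 in SHA and 296.6, 447.9 and 276.0 in SLA. Pool 2 was the brightest of both lines, and the lines differed by -0.19 ± 0.31 (-0.88 to 0.50). AB017656_s_at read 102.8, 63.7 and 82.7 in SHA and 191.8, 59.5 and 103.1 in SLA. Here pool 2 was the dimmest of both lines, opposite to M16407_at, so the probe sets of this gene did not rank the pools alike. The difference was -0.37 ± 0.51 and became 0.058 without SLA pool 1, and that of M16407_at became 0.028 without SLA pool 2.

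Chrm2, which encodes M2, had a probe set with no mean difference and a dim one with a wide spread. AB017655_s_at read 84.8, 35.0 and 85.9 in SHA and 88.8, 52.7 and 53.7 in SLA, a difference of 0.007 ± 0.55 (-1.22 to 1.24). An interval this wide does not show that the lines are alike. J03025_at read 47.6, 19.0 and 65.1 in SHA and 11, 30.5 and 42.8 in SLA, a difference of 0.68 ± 0.78. The within-number differences of J03025_at were 2.11, -0.68 and 0.61, so number 1 carried it, and without both pools numbered 1 the value was -0.039.

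Chrm4, which encodes M4, was measured by 1 usable probe set. Z49748exon_at read 260.6, 96.5 and 93.0 in SHA and 262.2, 116.5 and 163.7 in SLA. Pool 1 was the brightest of each line and nearly equal between them, and the difference of -0.37 ± 0.49 came from number 3, at -0.82, more than from numbers 1 and 2, at -0.009 and -0.27. It was -0.057 without SLA pool 1 and -0.85 without SHA pool 1. M16409_at read 4.0, 21.8 and 7.6 in SHA and 10.9, 10.1 and 7.2 in SLA, with 3 of 6 pools at the floor, and it did not pass the filter. No statement on the lines is possible from values so low.

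The nicotinic subunits gave 5 probe sets that passed, 3 of them of Chrna7, so they are not 5 independent readings. Each had a lower mean log2 value in SHA, also after quantile normalization and median centring. SLA pool 1 was the brightest of the 6 pools for each of the 5. The median difference of the 5 within numbers 1, 2 and 3 was -1.07, -0.34 and 0.064. Without SLA pool 1, L31619_at and L31619_g_at of Chrna7 were at -0.36 and -0.61, and Chrna4 was at -0.26. S53987_at of Chrna7 and Chrnb2 reversed sign in some other settings, among them array weights and leaving out SLA pool 1 (0.11 and 0.22). Of all probe sets tested, 48.1% were above 0. Chrna7, the subunit of the homomeric receptor, has 3 probe sets. L31619_at read 166.8, 77.4 and 182.1 in SHA and 200.4, 147.8 and 197.0 in SLA. Each SHA pool lay below the SLA pool of its number, while SHA pools 1 and 3 lay above SLA pool 2, and the difference was -0.44 ± 0.41 (-1.35 to 0.48). Without SHA pool 2, the dimmest, it was -0.047, and without SHA pool 3 it was -0.66. L31619_g_at, designed from the same sequence record, read 26.3, 35.1 and 99.2 in SHA and 145.2, 63.3 and 75.0 in SLA. Its difference of -0.97 ± 0.63 (-2.38 to 0.44, unadjusted p = 0.16 by limma) was the farthest below 0 of the 15, with -2.46, -0.85 and 0.40 within the numbers. It was -0.58 without SHA pool 1, -0.22 without both pools numbered 1 and -1.54 without SHA pool 3 (unadjusted p = 0.033 by limma in that fit). S53987_at read 68.3, 99.7 and 101.0 in SHA and 143.3, 81.3 and 81.8 in SLA. That probe set differed by -0.16 ± 0.43, with SHA lower in number 1 and higher in numbers 2 and 3, and by 0.30 without both pools numbered 1.

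Chrna4, the partner of beta2 in the high-affinity nicotinic receptor, read 76.4, 53.1 and 97.3 in SHA and 154.1, 67.1 and 115.0 in SLA on M15682_at. SHA was lower within each number, by -1.01, -0.34 and -0.24, and the difference over all pools was -0.53 ± 0.48 (-1.60 to 0.54, unadjusted p = 0.29 by limma). It was -0.26 without SLA pool 1, -0.30 without SHA pool 2 and -0.86 without SLA pool 2. Chrnb2, which encodes beta2, read 28.1, 33.6 and 30.1 in SHA and 66.4, 24.0 and 28.8 in SLA on L31622_at. A single bright pool, SLA pool 1, set the sign: the difference was -0.23 ± 0.65 over all pools and 0.22 without it. Chrna5, the accessory alpha5 subunit, read 4.6, 4.2 and 9.8 in SHA and 5.5, 7.9 and 9.5 in SLA on J05231_at. With 4 of 6 pools at the floor it did not pass the filter, and a lower value in either line was not detectable at this signal. In the RefSeq gene order of GRCr8 the next protein-coding genes after Chrna5 are Chrna3 and Chrnb4, whose values are given further below.

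The 3 probe sets of Ache all read higher on average in SHA. S50879_at read 47.2, 57.8 and 94.6 in SHA and 21.7, 22.3 and 58.0 in SLA. Pools 2 and 1 of SLA were the dimmest, and only SLA pool 3 reached into the SHA range, exceeding SHA pools 1 and 2. The means were 66.5 ± 24.9 and 34.0 ± 20.8 (SD), and the difference was 1.07 ± 0.63 (-0.34 to 2.47), or 2.10-fold with an interval of 0.79-fold to 5.55-fold. Its unadjusted p of 0.12 by limma was the smallest among the 15, and the within-number differences were 1.12, 1.37 and 0.71. The difference was 0.46 with array weights. S50879_g_at, from the same sequence record and brighter, read 368.2, 281.5 and 313.3 in SHA and 290.6, 246.9 and 279.4 in SLA. The single overlap was SLA pool 1 above SHA pool 2, the differences within the numbers were 0.34, 0.19 and 0.17, and the value over all pools was 0.23 ± 0.26 (-0.34 to 0.81), or 1.17-fold, and 0.13 without SHA pool 1. X70141_r_at read 128.9, 6.5 and 146.0 in SHA and 42.4, 6.9 and 63.9 in SLA, so that both pools numbered 2 were at the floor. Its difference of 0.93 ± 1.16 rested on numbers 1 and 3, at 1.60 and 1.19, and was 0.40 with array weights. It was 2.25 without SHA pool 2 (unadjusted p = 0.027 by limma in that fit) and 0.083 without SLA pool 2. Leaving out SHA pool 1 gave 0.32, and leaving out SHA pool 3 gave 0.23. The probe sets of Ache therefore shared a direction but not a size.

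**Figure D2:**
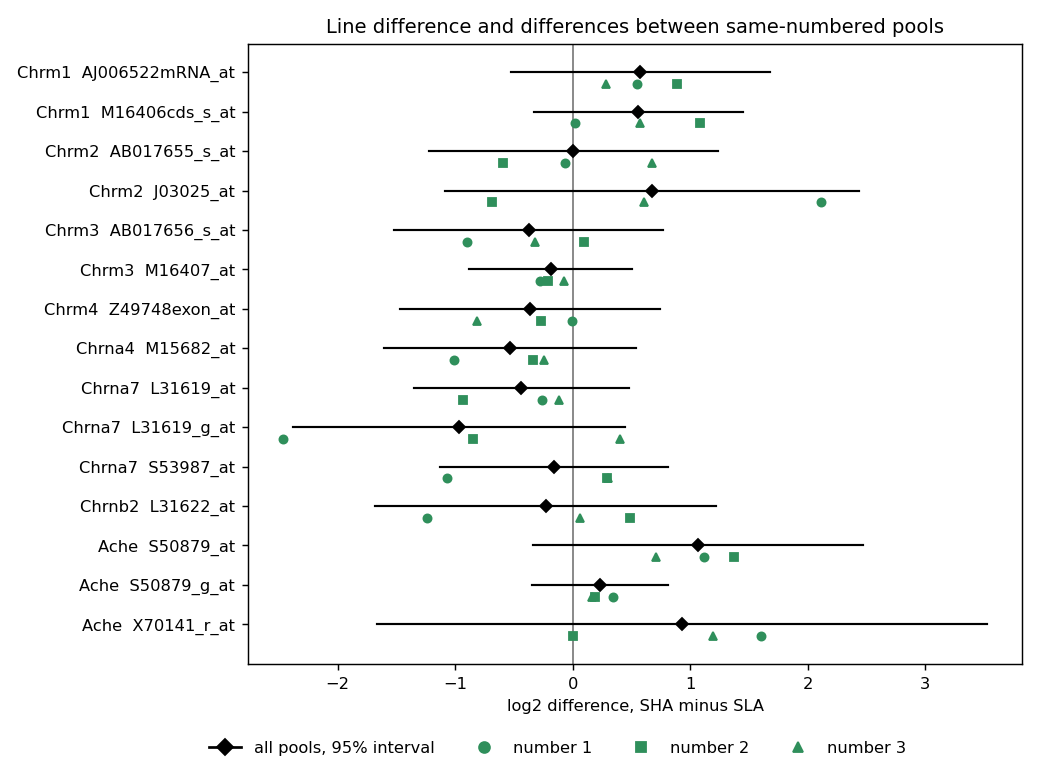
Log2 differences, SHA minus SLA, of the 15 probe sets that passed the filter, as diamonds with 95% intervals from limma, and the differences between pools of the same number as green symbols. Every interval includes 0, Ache and Chrm1 diamonds lie above 0 and the nicotinic diamonds below it.

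Counted together, 7 of the 15 probe sets had a mean above 0 and 8 below, with a median difference of -0.16, beside 48.1% above 0 and a median of -0.014 over all probe sets tested. With the 2 dim probe sets included after flooring, 9 of 17 were above 0 and the median was 0.007. The muscarinic probe sets were split 4 to 3, the 5 nicotinic ones had a median of -0.44, and the 3 of Ache a median of 0.93. For each of the 5 nicotinic ones SLA pool 1 was the brightest pool. The median absolute difference was 0.44 among the 15 and 0.24 over all tested. Of the 15, 11 were among the 3278 dimmer probe sets tested, and no comparison at equal brightness was made. Whether the nicotinic subunits and Ache differ from each other in their line difference was not tested. The direction was the same within all 3 pool numbers for 8 of the 15, 4 higher and 4 lower in SHA, and for 28.0% of all probe sets tested. The 4 higher were both probe sets of Chrm1 and the S50879 pair of Ache, and the 4 lower were M16407_at of Chrm3, Z49748exon_at of Chrm4, M15682_at of Chrna4 and L31619_at of Chrna7.

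The pools varied more with their number than with the line. When the variation of a probe set over the 6 pools on the log2 scale was divided into line, pool number and remainder, the number took a median of 61.4% among the 15 and the line 15.4%. Over all probe sets tested the medians were 62.4% and 7.61%, so the large share of the pool number was not particular to these genes. The labels do not say what the pools of a number have in common. The number spans 3 values and the line 2, so the shares are not on an equal footing. The number took 89.2% for M16407_at of Chrm3, 87.7% for X70141_r_at of Ache and 84.0% for Z49748exon_at of Chrm4. The line took its widest shares, 48.2% and 43.2%, for the S50879 pair of Ache, followed by 38.4% for M16406cds_s_at of Chrm1 and 33.3% for L31619_g_at of Chrna7. For S53987_at of Chrna7 neither counted, and the remainder held 91.3%.

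**Figure D3:**
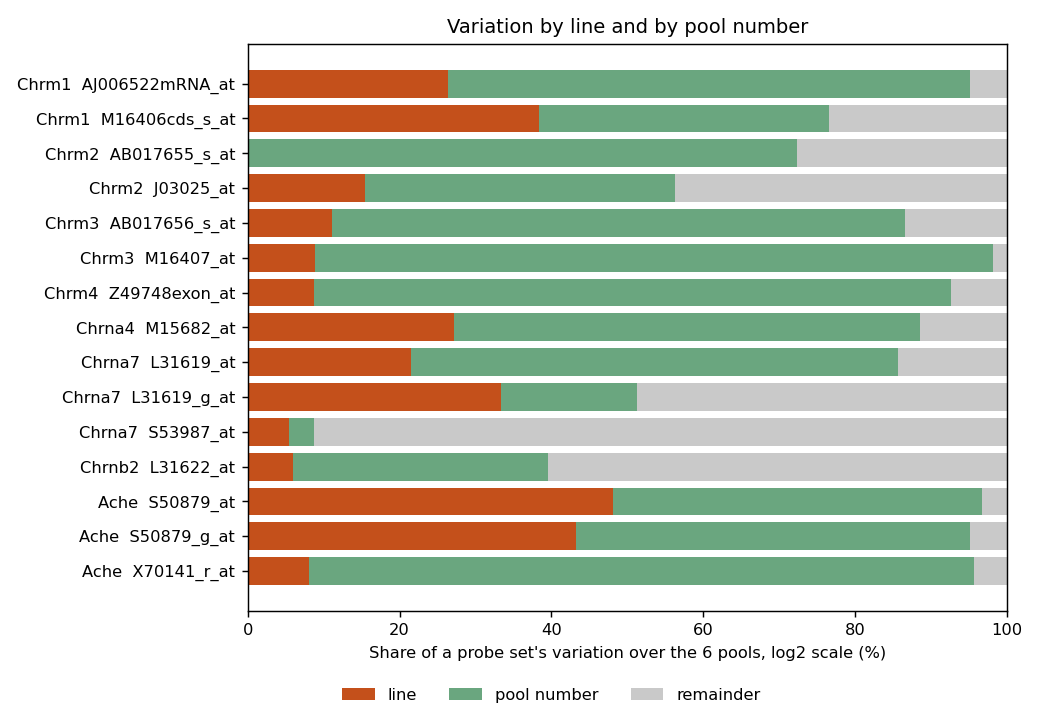
Share of the variation over the 6 pools on the log2 scale, in percent, that falls to the line, the pool number and the remainder, for the 15 probe sets that passed the filter. The pool number holds 68.8% for AJ006522mRNA_at of Chrm1 and 3.28% for S53987_at of Chrna7, and the line holds 48.2% for S50879_at of Ache.

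Pools numbered 2 were dim for these genes in both lines. The median deviation of the 15 probe sets from their own mean was -0.54 in SHA pool 2 and -0.37 in SLA pool 2, while it was 0.15 and 0.37 in the pools numbered 1 and 0.14 and 0.12 in those numbered 3. Over all probe sets tested the deviations in the pools numbered 2 were -0.037 and 0.023. Over the 3278 dimmer of the probe sets tested, among which 11 of the 15 lay, they were -0.16 and -0.026. Pool 2 was the lowest of each line for 7 of the 15 probe sets and the highest of each for 1, M16407_at of Chrm3, against 24.9% and 20.8% of all tested. The antisense control probe sets of Gapdh and beta-actin followed the pool number as well, with geometric means, SHA first, of 1352 and 1432 for number 1, 30.1 and 21.3 for number 2, and 365 and 219 for number 3. For the spike-in controls these were 5458 and 12282, 1121 and 640, and 2279 and 1564, with SLA pool 1 the highest. At the floor were 15.9% and 13.6% of all values in the pools numbered 2, against 4.95% to 10.2% in the other 4. The part of these array differences in the values above was not tested.

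**Figure D4:**
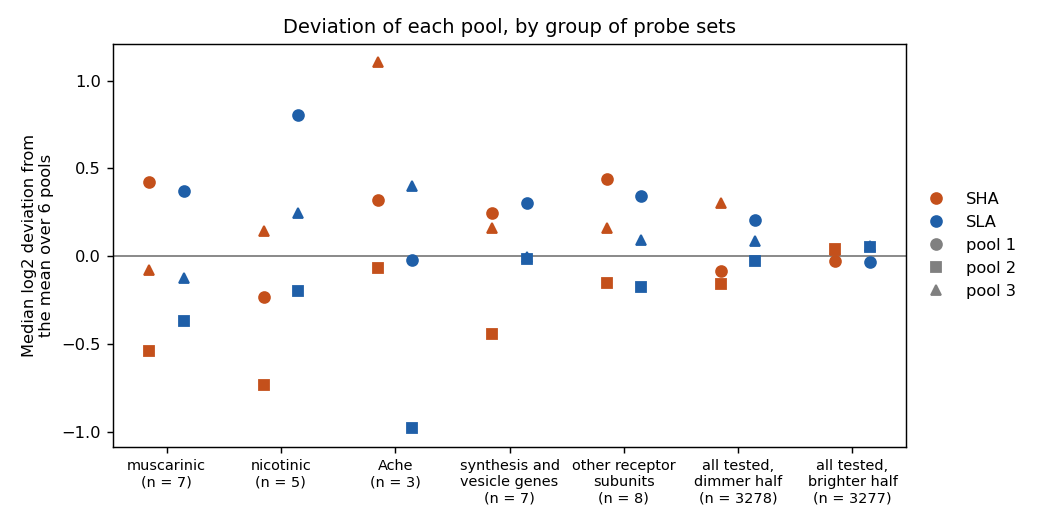
Median log2 deviation of each pool from the mean over the 6 pools, for groups of probe sets, with lines as colours and pool numbers as symbols. Within the muscarinic group the squares, the pools numbered 2, are the lowest, at -0.54 in SHA and -0.37 in SLA. In that order they are at -0.73 and -0.20 for the nicotinic group, where SHA pool 1 is at -0.23. For Ache they are at -0.065 and -0.98. All 6 pools lie between -0.035 and 0.056 for the 3277 brighter probe sets tested.

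The genes listed for acetylcholine synthesis, vesicular loading, choline supply and breakdown were mixed in direction. Of 11 listed, 7 were on the array and passed, 2 higher and 5 lower in SHA. Their median difference was -0.023, and none passed the test. The choline transporter Slc5a7 and the second esterase Bche were not among the 7, so the count does not cover them. Chat, the enzyme that synthesises acetylcholine, read 63.8 ± 27.7 in SHA and 60.1 ± 19.7 in SLA (SD), a difference of 0.023 ± 0.57. Slc18a3, the vesicular acetylcholine transporter, read 152 ± 44.2 and 180.1 ± 26.4 on U09211_at, a difference of -0.27 ± 0.34, and -0.37 ± 0.33 on X80395cds_s_at. Colq, the collagen tail that anchors Ache at the neuromuscular junction, differed by -0.023 ± 0.29. Of the choline and phosphatidylcholine enzymes, Chka differed by -0.059, Chkb by -0.23, Pcyt1a by 0.42 and Pemt by -0.0046 on the brightest probe set of each. Of the basal forebrain cholinergic markers 3 of 5 were measured, Chat, Slc18a3 and Ngfr, with sums of 619 to 1546 in SHA and 762 to 2008 in SLA.

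Among the other receptor subunits 12 of 13 were on the array and 8 passed, split 4 to 4 with a median of 0.046, none past the threshold. Chrm5, which encodes M5, differed by 0.32 ± 0.49. Chrna2, a subunit of some hippocampal interneurons, read 26.9, 37.7 and 30.5 in SHA and 65.8, 42.9 and 58.4 in SLA. Those pools did not overlap, as for 3.65% of all probe sets in that direction, and the difference was -0.80 ± 0.55 (-2.03 to 0.42, adjusted p = 1.00 by limma). Chrnb4 differed by -0.23 on U42976_at and 0.073 on J05232cds_s_at. The subunits of the muscle receptor did not share a direction, with Chrna1 at 0.74, Chrnd at 0.58, Chrnb1 at 0.39, Chrne at -0.32 and Chrng at -0.43. Chrna3, Chrna6, Chrna9 and Chrnb3 were too dim to pass the filter, and their differences after flooring were -0.81, -0.74, -0.82 and -0.15. For Chrna9 and Chrnb3 1 pool each lay at the floor, and for Chrna3 and Chrna6 none did.

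Of the genes for nicotinic receptor assembly and modulation 4 of 12 were on the array and 3 passed. Ywhah, the 14-3-3 eta protein, differed by 0.28 ± 0.32, Vsnl1, a neuronal calcium sensor, by 0.21 ± 0.67, and Agrn, agrin, by -0.096 ± 0.32. On the Gq side of muscarinic signalling 13 of 19 were measured above the filter, 9 higher and 4 lower in SHA with a median of 0.20, and none passed. Prkca, protein kinase C alpha, differed by 1.09 ± 0.63 and Plcb3, a phospholipase C beta, by 0.94 ± 0.54. Kcnq3, a subunit of the M-current channel that muscarinic receptors close, read 192.3, 234.9 and 226.7 in SHA and 281.6, 380.0 and 261.2 in SLA. Its SHA pools all lay below its SLA pools, as for 3.65% of all probe sets in that direction. The difference was -0.48 ± 0.28 (-1.11 to 0.14), and the other Kcnq3 probe set, AF087454_at, did not pass the filter. Plcb4 differed by -0.50 ± 0.77.

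On the Gi/o side 13 of 22 were measured above the filter, 8 higher and 5 lower, with a median of 0.013. Grk3, a kinase that marks activated receptors for arrestin binding, read 26.2, 63.2 and 32.4 in SHA and 172.1, 111.9 and 72.1 in SLA. All SHA pools lay below all SLA pools, as for 3.65% of all probe sets, at 40.6 ± 19.8 against 119 ± 50.3 (SD). The difference was -1.56 ± 0.56 (-2.81 to -0.32, unadjusted p = 0.019 and adjusted p = 1.00 by limma), and 1.13% of all probe sets were lower at an unadjusted p under 0.05. Leaving out 1 pool at a time gave -1.94 to -1.25, and the unadjusted p by limma was 0.0505 when SLA pool 2 was left out, 0.074 when SLA pool 1 was and 0.060 when SHA pool 1 was. Without both pools numbered 1 the difference was -0.99, with an unadjusted p of 0.15 by limma. With all pools, Grk3 was the only gene of the 5 lists under an unadjusted p of 0.05. Gnaz, a Gi-family alpha subunit, differed by -0.29 ± 0.28, Arrb2, a beta-arrestin, by 0.28 ± 0.28, and Adcy5, an adenylyl cyclase, by 0.32 ± 0.34. These are the brightest probe sets, and another tested probe set of each gene went the other way. The difference was 0.48 for J03773_s_at of Gnaz, -0.16 for M91590_g_at of Arrb2 and -0.31 for rc_AI044848_s_at of Adcy5.

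The probe sets whose profile over the 6 pools was most like a member's were listed for the brightest member and for the one of smallest p. Nearest to M16407_at of Chrm3, among 5380 named candidates, were Anxa5, Kcna1 and Nr3c1 at Pearson r of 0.997, 0.987 and 0.981 over 6 pools. Nearest to S50879_at of Ache, among 5379, were Mark3, Patj and Supv3l1 at 0.979, 0.979 and 0.972. With 6 pools that also share their arrays, 34 and 4 candidates exceeded 0.95, so these names describe the profiles only. Anxa5 read 548.6 and 605.4 in the pools numbered 2 and 360.3 to 436.2 in the other 4, the same ranking by pool number as M16407_at.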

How the data were processed

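Total RNA from 6 hippocampal pools was measured on 6 one-colour arrays. For each probe set the authors deposited a linear intensity per array, and equal trimmed means show that the arrays had been scaled. The software is not given in the sources used. Of 8799 probe sets 59 are array controls. Gene names came from the platform annotation, updated by gene number through RefSeq (GRCr8), where 6985 of 7006 probe sets with 1 symbol matched. Intensities were floored at 8.9, log2 was taken, the dimmest 25% was left out, and limma 3.58.1 (R 4.3.3) compared the lines (lmFit, eBayes with trend, two-sided). The p was adjusted over 6555 probe sets by Benjamini-Hochberg, and the threshold was 0.05. With 6 arrays, their number limits how precise a difference can be. The pipeline was tested on simulated data, with planted shifts larger than any member difference and noise drawn independently for each pool. That test does not cover differences of the size seen here or variation shared by pool number.

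Every probe set of the 9 genes is named. From 5 lists of other cholinergic and signalling genes, every measured gene of the first 2 is named and, of the others, the 2 of smallest p in each direction. Counts use the brightest probe set of a gene. The members and lists were chosen with earlier results of these data known. The labels number the pools 1 to 3 in each line without saying what a number means. Between pools of the same number the deviations from the line means correlated at 0.44, 0.68 and 0.13 over all probe sets tested, so the numbers may pair the pools, on evidence from the data alone. All differences, intervals and p-values are from the fit without pairing unless a block is named. For SHA pool 3 the correlation with SLA pool 1 was higher, at 0.16. Arrays correlated at 0.778 to 0.963. Alternatives were other scalings, filters, floors and variance settings, weights for arrays, a block for pool number, and leaving out each pool.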

Additional observations from a re-analysis of the deposited data

How the results depend on the processing

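Under 18 alternative settings the 15 probe sets gave 263 values, none of which passed the threshold, and the lowest adjusted p was 0.19 by limma, for M16406cds_s_at of Chrm1 with the replicate block and array weights together. That setting and the one without both pools numbered 1 were chosen after the data were seen. With the pool number as a block alone, 0 probe sets passed, 345 of all had an unadjusted p under 0.05, against 98 without it, and the lowest unadjusted p of the group was 0.059, for S50879_at of Ache. With block and array weights 12 of all probe sets passed and 4 of the 15 had an unadjusted p under 0.05. Of the 15 probe sets, 9 kept their sign throughout, among them those of Chrm1 and Ache, and 18 values changed sign. With array weights these were S53987_at of Chrna7 (0.074) and Chrnb2 (0.046). Without both pools numbered 1 they were J03025_at of Chrm2 (-0.039), S53987_at (0.30) and Chrnb2 (0.27), and with block and array weights AB017655_s_at (-0.33) and J03025_at (-0.17) of Chrm2, S53987_at (0.14) and Chrnb2 (0.22). Leaving out 1 pool at a time gave -0.21 to 0.44 for AB017655_s_at, -0.79 to 0.058 and -0.39 to 0.028 for AB017656_s_at and M16407_at of Chrm3, -0.29 to 0.11 for S53987_at and -0.52 to 0.22 for Chrnb2. The median over the group was -0.29 to 0.11 without 1 pool, 0.074 with array weights and 0.044 without both pools numbered 1. The cause was not tested. Grk3, Kcnq3 and Chrna2 were recomputed as the listed genes whose brightest probe set had pools that did not overlap. They kept their sign, and their lowest adjusted p by limma was 0.19, for Kcnq3. L15556_at of Plcb4, not the brightest of its gene and higher in SHA without overlap, was not recomputed. Dim probe sets depend on the floor, and 2 pools of X70141_r_at, 3 of M16409_at and 4 of J05231_at lay at it.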

Other observations

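For several genes of muscarinic signalling and choline metabolism the probe sets of a gene disagreed, and these genes were chosen after their values were seen. Chka, choline kinase alpha, differed by -0.059 on its brightest probe set and by 1.38 and 0.020 on the others. Plcb4 differed by -0.50 on AF027571_s_at and by 0.71 on L15556_at. On the latter SHA read 53.6, 52.8 and 52.3 and SLA 25, 36 and 37.9 without overlap, as for 2.01% of all probe sets in that direction. Grk2 differed by -0.25 on M87854_at and by 1.15 on S48813_s_at, and SLA pool 1 of the latter, at 14.6, was far below the other 5 pools at 141.3 to 332.1. None of these probe sets had an adjusted p under 0.05 by limma.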
